A study of Rattus norvegicus with 2 samples.

Results

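Neurotrophins and other growth factors are secreted proteins that keep neurons alive, shape their connections and, in the hypothalamus, take part in the control of feeding, growth and the stress response. The group described here was fixed by gene symbol and held 10 genes: the neurotrophins Bdnf and Ntf3, their receptors Ntrk2 and Ntrk3, the glial factor Gdnf and its co-receptor Gfra1, the secreted neuronal peptide precursor Vgf, the insulin-like growth factors Igf1 and Igf2, and the fibroblast growth factor Fgf2. A gene belonged to the group when a probe carried its symbol in the platform annotation, and the rule itself uses no measured value. The list of members was, however, chosen with earlier results of these data known. The arrays carried 27 probes for these 10 genes, of 44290 probes in all. Of the 27, 21 had a value, the same 21 on both arrays. These gave values for 9 genes of the group, out of 12092 genes with a value on at least 1 array. Ntf3 had 1 probe, which was empty on both arrays, so nothing could be measured for it.

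The samples were hypothalami of male Wistar rats that entered the experiment at 21 days of age, after weaning, and lived in single, screened cages. The 3 conditions, with 4 animals each per the labels, were tickling by hand in imitation of rough play, which evokes 50 kHz calls, a light touch as a contrasting hand stimulus, and no stimulus. Each weekday session had 2 sets of 4 cycles, each cycle with 15 s of rest and 15 s of stimulation, for 4 weeks. On 1 2-colour array the tickled group (dye Cy5) was set against the no-stimulus group (Cy3), and on the other against the light-touch group (Cy3). Single housing was common to all 3 groups, and the labels name no genotype, drug or other agent. The labels leave unsaid whether RNA of the 4 animals was pooled and whether both arrays took the same tickled RNA.

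The values are linear ratios of the dyes, 1 per probe and array, as the authors deposited them. They were read as tickled over control, which is likely from the dyes but is not stated. Were it control over tickled, every direction below would turn round. The median ratio was 1.0 on both arrays. A gene's value is the median of the log2 ratios of its probes, printed as a ratio. Each comparison rests on 1 array, so there was no test, no p-value and no error between animals. The only error available was the spread between probes of a gene on the same array, which was 0.18 log2 units (SD) on both arrays, or 1.13-fold. It was pooled over 4354 genes against no stimulus and over 4226 against light touch. Ratios carry no level, so whether the tissue expressed its defining genes could not be read from them. In such bulk tissue, fewer cells of a type and less RNA per cell cannot be told apart.

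BDNF signals through TrkB (Ntrk2) and NT-3 through TrkC (Ntrk3), receptor tyrosine kinases whose activity supports survival and synaptic change. GDNF binds GFRα1 and signals through the kinase Ret. Bdnf and Vgf are textbook targets of neuronal activity, and the cyclic AMP response element bound by CREB is a known part of their promoters. The windows before their transcription starts are shown because these are the 2 members for which that element is best known, and because both were measured here after weeks of stimulation. Each runs 5′ to 3′ over the 250 bases upstream of a RefSeq start on the GRCr8 assembly, and capitals mark every CGTCA or its reverse complement TGACG.
Vgf (chr12:25277021-25277270, - strand): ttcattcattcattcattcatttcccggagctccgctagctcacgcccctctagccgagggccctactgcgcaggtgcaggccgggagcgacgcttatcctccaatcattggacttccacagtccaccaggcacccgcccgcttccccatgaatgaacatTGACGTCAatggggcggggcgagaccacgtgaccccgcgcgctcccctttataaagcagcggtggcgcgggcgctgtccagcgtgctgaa
Bdnf (chr3:116637608-116637857, + strand): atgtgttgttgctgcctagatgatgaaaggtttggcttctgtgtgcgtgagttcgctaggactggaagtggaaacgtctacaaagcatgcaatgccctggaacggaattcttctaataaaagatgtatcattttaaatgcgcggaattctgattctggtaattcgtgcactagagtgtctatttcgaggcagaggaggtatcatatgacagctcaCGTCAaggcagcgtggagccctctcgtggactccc
In the Vgf window the capitals form the full palindrome TGACGTCA, whose first base lay 90 bases before the start. The Bdnf window is 1 of 6 that RefSeq gives for this gene, some of which overlap, and its element began 35 bases before the start. RefSeq windows matched 8 of the 10 genes and numbered 16. Of these 16, 4 held CGTCA on either strand, 1 each for Vgf, Bdnf, Gdnf and Fgf2, where 18.2% of all 33469 windows held it. The palindrome was in 1 of the 16 and in 1.59% of all windows. A match is a description of letters and not a bound site.

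In the hypothalamus of tickled rats, the growth factor genes lay within 1.5-fold of both control groups, and most had ratios slightly above 1. Against no stimulus, Fgf2 had the highest ratio of the group at 1.32 and Bdnf the lowest at 1.045. Against light touch, Igf2 had the highest at 1.32 and the receptor gene Gfra1 the lowest at 0.834. All 9 measured genes had a ratio above 1 against no stimulus, where 51.8% of all 11881 measured genes did. Against light touch 8 of 9 did, where 51.3% of 11745 did. No member was at 0.8 or less on either array, where 2.48% of all genes were against no stimulus and 4.24% against light touch. The group's median log2 ratio was 0.15 against no stimulus and 0.16 against light touch, beside 0.014 for all genes on both arrays. Both figures are descriptions of 1 array each, and the 2 arrays have the tickled condition in common.

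**Figure D1:**
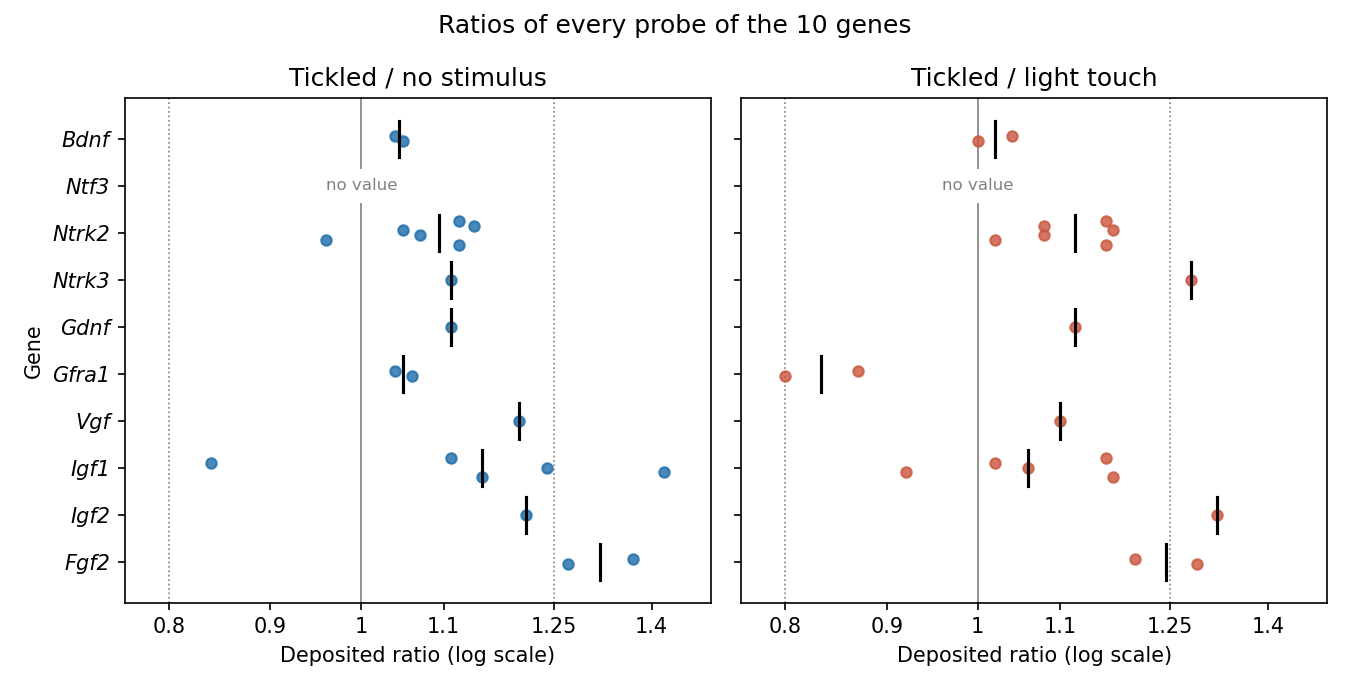
Deposited ratio of each probe (points, log axis) of the 10 genes on the no-stimulus array (left) and the light-touch array (right). Black bars are gene medians, dotted lines mark 0.8 and its inverse, and Ntf3 had no value. By median, Fgf2 is farthest right on the left panel and Igf2 on the right panel, and the points of Igf1 are the most spread on both.

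The neurotrophin Bdnf lay close to 1 on both arrays. Of the 3 probes for Bdnf, 2 had values, which were 1.04 and 1.05 against no stimulus and 1.04 and 1.0 against light touch. The medians were 1.045 and 1.02, and all 4 values lay inside the probe spread of 1.13-fold. Bdnf ranked above 64.8% of all genes against no stimulus and above 54.2% against light touch, close to the middle of both. The 2 measured probes were made to the same transcript record and differed by little, with an SD of 0.01 and 0.04 log2 units.

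Ntrk2, which encodes the BDNF receptor TrkB in neurons and a truncated form of it in astrocytes, was measured by 6 probes. Against no stimulus they gave 0.96, 1.05, 1.07, 1.12, 1.12 and 1.14, with a median of 1.09. Against light touch they gave 1.02, 1.08, 1.08, 1.16, 1.16 and 1.17, with a median of 1.12. Above 1 were 5 of 6 probes against no stimulus and 6 of 6 against light touch. Both medians lay within the pooled spread of 1.13-fold, which is that of a single probe. At 0.13 and 0.16 log2 units, they exceeded the SD of the gene's own 6 probes, which was 0.09 and 0.08. Of the 6 probes, 2 lay near the ends of the probe numbers, where ratios ran higher, as described below. Both gave 1.12 against no stimulus and 1.16 against light touch. In the middle 80% of probe numbers the medians were 0.084 and 0.11 log2 units. The no-stimulus median was then below the SD of all 6 probes, and the light-touch median still above it. With the running median of neighbouring probes subtracted, the medians were 0.10 and 0.13. The SD between probes holds no error between animals. Which transcript form each probe reads is unknown from the sources used here.

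Ntrk3, the receptor gene for NT-3, had 1 probe. Its ratio was 1.11 against no stimulus and 1.28 against light touch. The second value was at least 25% above 1, as were the values of 5.23% of all genes on that array, and it ranked above 95.7% of them. No other probe was there to set beside it. Its ligand gene Ntf3 gave no value, so the pair could not be compared.

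Gdnf, the ligand named for the glial cells in which it was found, had 2 probes, 1 of them with values. These were 1.11 against no stimulus and 1.12 against light touch, both within the probe spread. Its co-receptor gene Gfra1 was near 1 against no stimulus and below 1 against light touch. Both of its probes were slightly above 1 against no stimulus, at 1.04 and 1.06, and both were below 1 against light touch, at 0.87 and 0.80. The medians were 1.05, which is within the probe spread, and 0.834. The light-touch value ranked above 6.15% of all genes on its array. Gfra1 stood 1.22-fold below Bdnf, its neighbour in the order of the group on the light-touch array. That was the only step between neighbours on either array that exceeded the probe spread of 1.13-fold.

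Subtracting each gene's log2 value against light touch from its value against no stimulus gives light touch over no stimulus, provided both arrays took the same tickled RNA. For Gfra1 this difference was 0.33, or 1.26-fold, and Gfra1 was the 1 gene of 9 whose quotient was 25% or more above 1, where 5.64% of 11534 genes were. With the local median along the array subtracted it was 0.318 log2 units, just under that bound. Ntrk3 was at the other end, at -0.21 or 0.867. Bdnf, Ntrk2 and Gdnf had differences of 0.04, -0.03 and -0.01. The difference of Gfra1 was not tested, since each arm rests on 1 array.

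A list of markers of cortex and of thalamus, which adjoins the hypothalamus, lay mostly above 1 against no stimulus, where Gfra1 was near 1. Against light touch the list lay mostly below 1, as Gfra1 did. Its median distances from 1 were larger than those of Gfra1. Within the list, the cortical genes Tbr1, Neurod6 and Neurod2 were at 0.71, 1.04 and 1.11 against no stimulus. Against light touch they were at 0.85, 0.97 and 1.01. Of the whole list, 13 of 14 measured markers were above 1 against no stimulus, with a median of 0.40 log2 units. The range ran from 0.71 for Tbr1 to 2.42 for the protein kinase gene Prkcd. Against light touch 11 of 13 were below 1, with a median of -0.54 and a range from 0.309 for the glutamate transporter gene Slc17a7 to 1.01 for Calb2. The 24 hypothalamic neuron markers went the other way against light touch, where all 20 measured ones were above 1, with a median of 0.63. Against no stimulus 14 of 22 of these were above 1, with a median of 0.11. Oligodendrocyte markers had a median near 1 against no stimulus and lay mostly below 1 against light touch. Against no stimulus 8 of 11 were above 1, where 51.8% of all genes were. Their median was 0.029, from Olig2 at 0.95 to Sox10 at 1.22. Against light touch 10 of 11 were below 1, with a median of -0.15, from Mog at 0.86 to Sox10 at 1.07. Of 14 general neuron markers 6 were above 1 against no stimulus and 4 against light touch, with medians of -0.011 and -0.11, from 0.94 (Stmn2) to 1.09 (Snap25) and from 0.77 (Nefh) to 1.08 (Rbfox3). Of 11 microglia markers 7 were above 1 on each array, with medians of 0.029 and 0.11, from 0.89 (Trem2) to 1.17 (Cd68) and from 0.91 (Trem2) to 1.22 (Itgam). The part of these shifts in the values of Gfra1 and Ntrk3 was not tested.

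Vgf is made in neurons and in endocrine cells, and its product is cut into peptides that act on energy balance. It had 1 probe, with a ratio of 1.20 against no stimulus and 1.10 against light touch. The first value was outside the probe spread, which is 1 SD, and the second inside it. Vgf ranked above 91.9% of all genes against no stimulus and above 81.2% against light touch. Among the hypothalamic neuron markers, the melanocortin precursor gene Pomc, whose neurons also make Vgf, was the highest on both arrays, at 1.62 and 2.13. The lowest were vasopressin (Avp) at 0.508 against no stimulus, where oxytocin (Oxt) was at 0.67, and Hmx3 at 1.02 against light touch. Pituitary markers, from an endocrine tissue that adjoins the hypothalamus, were above 1 in 7 of 7 against no stimulus, with a median of 0.18, from Pitx1 at 1.09 to Tshb at 9.08. Against light touch 6 of 7 were, with a median of 0.11, from Cga at 0.833 to Gh1 at 1.42. The part of these cells in the value of Vgf was not tested. Of the other granins and peptide-processing genes, 6 of 13 were above 1 against no stimulus, with a median log2 ratio of 0.00. Against light touch 10 of 13 were above 1, with a median of 0.10. The range there ran from 0.82 for the convertase gene Pcsk2 to 1.14 for chromogranin A (Chga). Pcsk2 was also the highest of the 13 against no stimulus, at 1.27, and Pcsk1n the lowest, at 0.915.

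Igf1, a growth and survival factor made by the liver and also by neurons and glia, was the gene whose probes disagreed most. It had 8 probes, 5 with values. Against no stimulus these were 0.84, 1.11, 1.15, 1.24 and 1.42. Against light touch the same probes, in the same order, gave 1.02, 1.16, 1.17, 1.06 and 0.92. The medians were 1.15 and 1.06. The probes at 0.84, 1.11 and 1.42 against no stimulus carry the same transcript accession. The probe with the highest ratio against no stimulus thus had the lowest against light touch. The SD between probes was 0.28 log2 units on the no-stimulus array, larger than that of 90.4% of the 4354 genes with several probes, and 0.14 on the light-touch array, larger than that of 70.4%. The median of 1.15 against no stimulus was therefore within the gene's own spread.

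Igf2, an imprinted growth factor gene that in the adult brain is expressed mainly in choroid plexus and meninges, had 1 probe. Its ratio was 1.21 against no stimulus and 1.32 against light touch, outside the probe spread both times. It ranked above 92.5% and 96.6% of all genes. Of 13 measured meningeal markers, 12 were above 1 against no stimulus, with a median of 0.20 log2 units and a range from 0.83 for Slc22a6 to 1.32 for osteoglycin (Ogn). Against light touch 8 of 13 were above 1, with a median of 0.09 and a range from 0.85 for Igfbp2 to 1.65 for the retinoic acid enzyme gene Aldh1a2. Of choroid plexus markers other than Igf2, 4 of 11 were above 1 against no stimulus and 4 of 10 against light touch, with medians of -0.04 and -0.03. At 0.8 or less were 4 of 11 against no stimulus, where 2.48% of all genes were. Against light touch 3 of 10 were, where 4.24% of all genes were. The highest were Folr1 at 1.10 against no stimulus and Prlr at 1.13 against light touch. Transthyretin (Ttr), the gene that defines that epithelium, was the lowest on both, at 0.08 and 0.39. The part of meningeal tissue and of choroid plexus in the value of Igf2 was not tested.

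Fgf2, a mitogen of glia and neural progenitors that astrocytes express, had 2 probes and both were high on both arrays. Against no stimulus they were at 1.37 and 1.27, and against light touch at 1.20 and 1.29. The medians were 1.32 and 1.24. Against no stimulus Fgf2 was the 1 gene of the group 25% or more above 1, where 5.87% of all genes were. It ranked above 96.0% of all genes there and above 94.7% on the light-touch array. Astrocyte markers had smaller ratios, with a median log2 ratio of 0.08 on both arrays. On the no-stimulus array 11 of 12 were above 1, from 0.98 for Glul up to 1.18 for the glutamate transporter gene Slc1a2. On the light-touch array 8 of 12 were, from 0.97 for Fgfr3 up to 1.15 for S100b. Ependymal and tanycyte markers, from cells lining the third ventricle, had medians of 0.23 and 0.12 with 9 of 10 above 1 on each array, from 0.94 (Dio2) to 1.70 (Fndc3c1) and from 0.96 (Scn7a) to 1.67 (Rax). The part of these cells in the value of Fgf2 was not tested. Nudt6, a gene that overlaps Fgf2 in RefSeq and is known as its antisense partner, had ratios of 1.16 and 1.13 from 1 probe.

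**Figure D2:**
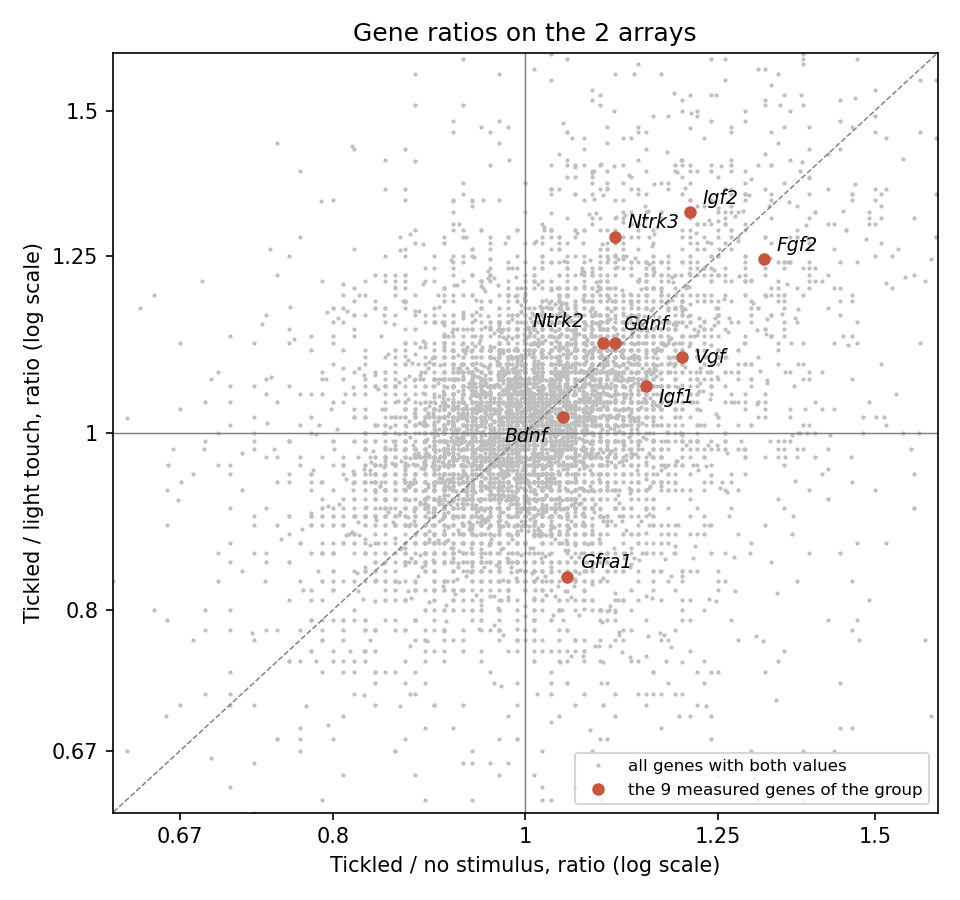
Gene ratio on the no-stimulus array (horizontal, log axis) against that on the light-touch array (vertical, log axis) for all genes with both values within the plotted range (grey) and the 9 measured genes (red). The dashed line marks equal ratios. Gfra1 is the 1 labelled gene below the horizontal line at 1.

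Fgf2 and Igf2, the 2 highest genes of the group against no stimulus, were both measured at the ends of the probe order. Ratios drifted along the probe numbers on both arrays, and in the outermost 20% of numbers the median ratio of all probes was 1.04 against no stimulus and 1.05 on the other array, beside 0.99 and 1.0 in the middle 80%. At 25% or more above 1 were 14.0% of the outer and 4.66% of the middle probes on the no-stimulus array, and 13.3% and 4.66% on the light-touch array. Both probes of Fgf2 and the only probe of Igf2 lay in that outer zone, so neither gene had a value in the middle 80%. The only probe of the tanycyte marker Fndc3c1 lay there too. In the middle 80%, 7 ependymal and tanycyte markers had values, with medians of 0.16 log2 units against no stimulus and 0.04 against light touch. Astrocyte markers had medians of 0.08 and 0.01 there, and meningeal markers 0.20 and 0.11. With the local running median over 500 probes to either side subtracted, Fgf2 was at 1.26 and 1.19 and Igf2 at 1.17 and 1.26. Gfra1 was at 1.02 and 0.818, and Ntrk3 at 1.12 and 1.29. The medians of the group were then 0.17 and 0.13 log2 units.

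**Figure D3:**
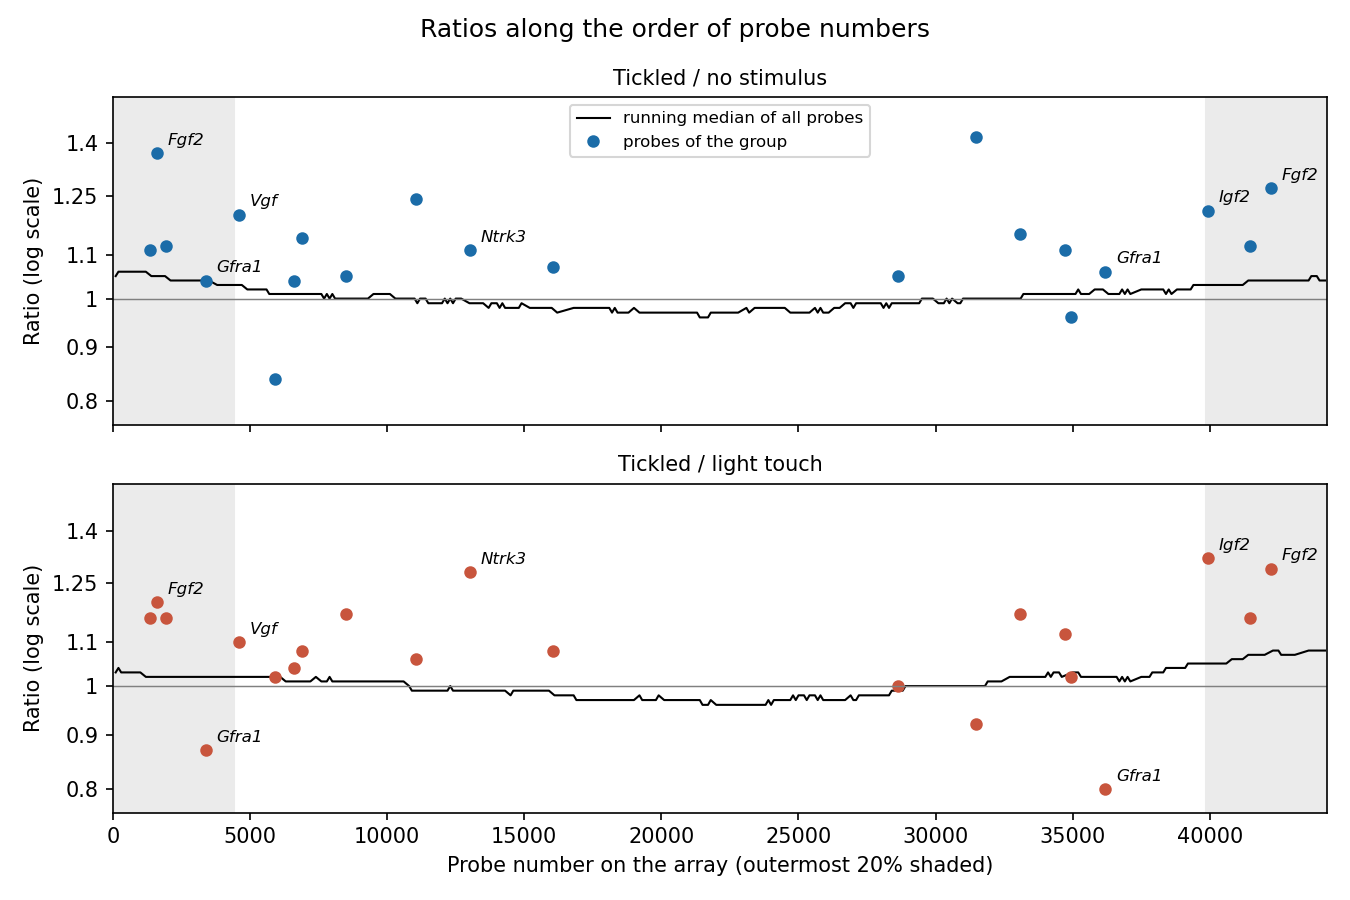
Ratio (log axis) of each probe of the group (points) along the probe numbers of the no-stimulus array (top) and the light-touch array (bottom), with the running median of all probes (line) and the outermost 20% of numbers shaded. The Fgf2 and Igf2 points lie in the shaded zones, above the line.

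The wider families of these growth factors had medians nearer to 1 than the group itself. The group was, however, chosen with earlier results of these data known. In the neurotrophin pathway, 17 genes other than the members were measured against no stimulus, 9 of them above 1, with a median log2 ratio of 0.04. Of 16 measured against light touch, 7 were above 1, with a median of -0.01. The value farthest from 1 was that of Ngfr, the p75 receptor shared by all neurotrophins, which had 1 probe at 0.45 against no stimulus and 0.77 against light touch. Genes at 1.5-fold or more below 1 made up 0.362% of all genes on the no-stimulus array. Ngfr is a known marker of cholinergic neurons of the basal forebrain. Genes used by such neurons, picked after their values were seen and so no evidence of a shared change, did not all have like values. The acetylcholine transporter gene Slc18a3 had ratios of 0.43 and 0.45, the choline transporter gene Slc5a7 had 0.49 and 0.38, and the forebrain transcription factor gene Lhx8 had 0.35 and 0.61, whereas the acetylcholinesterase gene Ache had 1.03 and 1.03. Their part in the value of Ngfr was not tested. The adaptor gene Shc3, with 1 probe, was at 1.06 and 0.64, and 0.928% of genes were 1.5-fold or more below 1 against light touch. The highest genes were the receptor gene Sorcs2 at 1.14 against no stimulus and, among non-members, Bex1 at 1.22 against light touch.

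In the GDNF family, 5 of 11 non-members were above 1 against no stimulus and 8 of 11 against light touch, with medians of 0.00 and 0.07. The signalling receptor gene Ret was near 1, at 1.02 and 1.07, and the co-receptor genes Gfra2, Gfra3 and Gfra4 lay between 0.94 and 1.10 on both arrays. Past 1.5-fold were Artn, the artemin gene, at 1.54 against no stimulus, and Sdc3, a cell-surface proteoglycan gene, at 1.53 against light touch. At 1.5-fold or more lay 1.62% and 1.57% of all genes on these arrays. Each value rested on 1 of 2 probes. The probes of Artn gave 1.06 and 2.23 against no stimulus, and those of Sdc3 gave 0.94 and 2.49 against light touch. The high probe lay in the outermost zone in both cases, and so did the lower probe of Artn, but not that of Sdc3. The lowest genes were the adaptor gene Dok4 at 0.89 against no stimulus and, among non-members, neurturin (Nrtn) at 0.92 against light touch.

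Among insulin-like growth factor genes, 13 of 19 non-members were above 1 against no stimulus and 9 of 19 against light touch, with medians of 0.06 and -0.04. The receptor gene Igf1r was at 1.0 and 0.83, and the clearance receptor gene Igf2r at 1.09 on both arrays. The insulin receptor gene Insr was the highest, at 1.56 and 1.76, from 1 probe in the outermost zone. The insulin receptor-related gene Insrr was the lowest, at 0.71 and 0.74. Binding protein genes went either way, as with Igfbp5 at 1.24 and 0.89 and Igfbp2 at 1.04 and 0.85. H19, the imprinted neighbour of Igf2, was at 1.02 and 0.82.

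Of the fibroblast growth factor genes other than Fgf2, 15 of 23 were above 1 against no stimulus and 7 of 21 against light touch, with medians of 0.05 and -0.06. Fgf10, a factor known from tanycytes, had the highest ratio against no stimulus at 1.40 and no value on the other array. Fgf11 was the highest against light touch, at 1.36, and was at 0.87 against no stimulus. The receptor genes Fgfr1, Fgfr2 and Fgfr3, which receive FGF2, lay between 0.96 and 1.06 on both arrays. The receptor gene Fgfr4, with 1 probe, was lower, at 0.95 against no stimulus and 0.80 against light touch. Spred2, an inhibitor of the signalling these receptors start, was the lowest on both, at 0.84 and 0.78. In each of the 5 families, peptide processing included, the median of the non-members was below that of the group on both arrays.

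**Figure D4:**
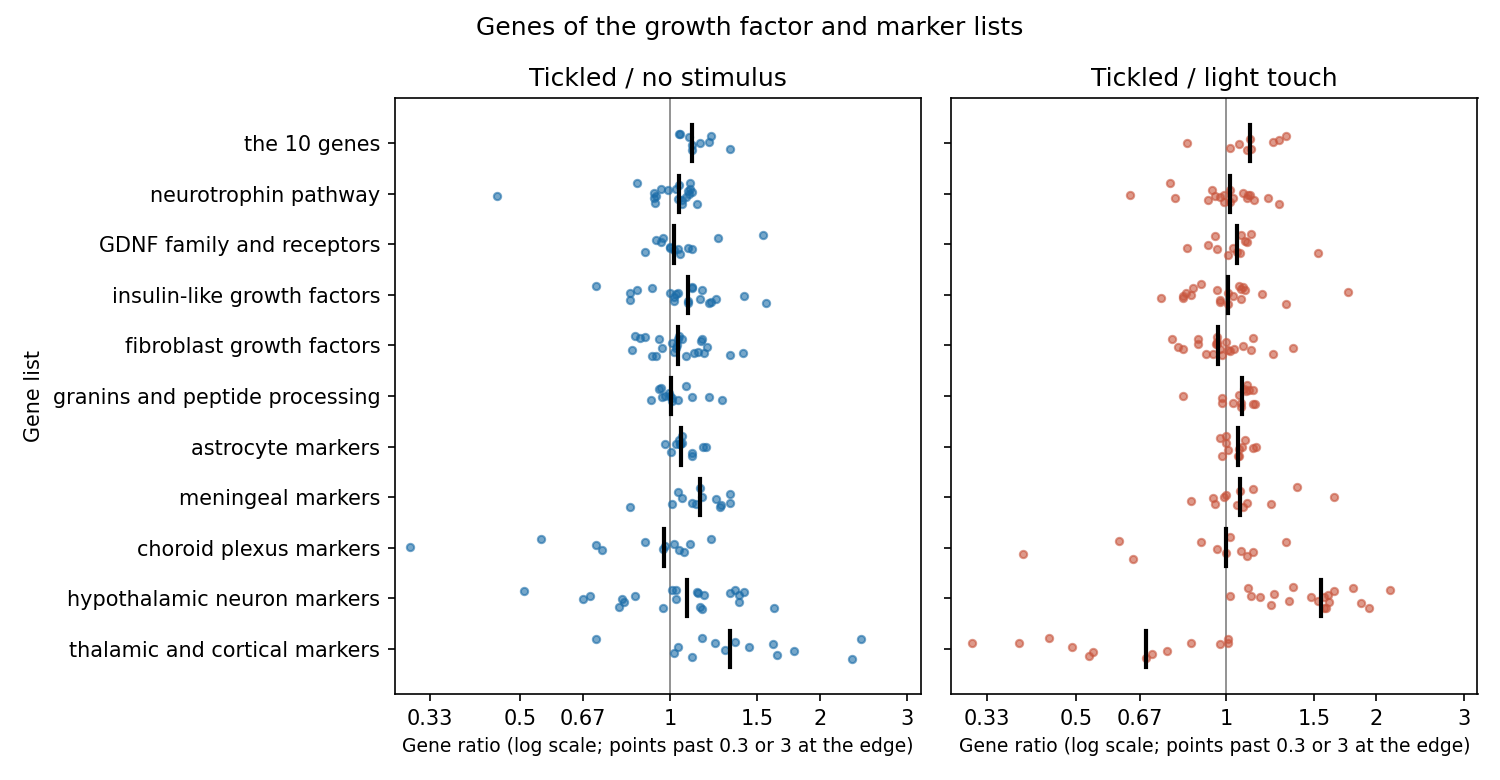
Gene ratios (points, log axis) for the 10 genes, the 5 growth factor families and 5 marker lists on the no-stimulus array (left) and the light-touch array (right), with list medians as black bars. Of the thalamic and cortical markers 13 of 14 lie right of 1 on the left panel and 11 of 13 left of 1 on the right panel. The family medians, members included, run from 0.007 to 0.12 log2 units on the left panel. On the right panel they run from -0.05 to 0.11.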

How the data were processed

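Oligonucleotide arrays with 2 dyes compared hypothalamic RNA of tickled rats with that of unstimulated and of lightly touched rats, 1 array each. Per the labels' protocols, 500 ng of total RNA was amplified to aminoallyl cRNA and coupled to Cy3 or Cy5. The deposited values are linear ratios to 2 decimals, already centred by the authors; the sources used here do not give the scanner, background correction, normalization, build or the reason for empty probes. A value was present for 30904 probes against no stimulus and 30133 against light touch.

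In the platform annotation, 23535 of the 44290 probes carried 1 gene symbol, 48 carried more and 20707 none. Entrez identifiers of 23488 matched the RefSeq table of GRCr8, used for names and overlaps, and 1 symbol changed. Promoter windows came from RefSeq on the same assembly. Gene values are medians over probes, computed with Python 3.11.15 and pandas 2.3.3 and tested on simulated data. Genes were counted at 25% or more above 1 (0.8 or less below it) and at 1.5-fold. The local median ran over 500 probes to either side in the order of probe numbers. The members, lists and alternatives were chosen with earlier results of these data known. The genes named were the members, the highest and lowest gene of each list on each array, family genes past 1.5-fold, and, by their role and after their values were seen, Oxt, Nudt6 and H19, a few receptors and binding proteins, other growth factors and cholinergic genes. The alternatives were the mean of probes, probes with values on both arrays, a subtracted local median, the middle 80% of probe numbers and the turned sign. Precision is limited by having 1 array per comparison.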

Additional observations from a re-analysis of the deposited data

How the results depend on the processing

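Gene values and list medians were recomputed with the mean of the probes, with probes valued on both arrays, after subtraction of the local median, and on the middle 80% of probe numbers. Of 284 such values, 279 stayed within the probe spread, or for counts within 1.5 times. Many of them could not move. The mean equals the median for genes with 1 or 2 valued probes, and all 21 valued member probes had values on both arrays. Most list medians were also smaller than the probe spread. The share that stayed is therefore no measure of how robust the values are. In the middle 80%, 0 members were 25% or more above 1 against no stimulus (Fgf2 has no probe there) and 1 against light touch (Ntrk3, since Igf2 has no probe there). Gfra1 keeps 1 probe there, at 0.80, so that 1 member is then at 0.8 or less against light touch. Also there, Sdc3 was at 0.014 log2 units against no stimulus and reversed to -0.089 against light touch, because only its lower probe remains. Artn was at 0.084 against no stimulus with probes valued on both arrays.

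With the sign turned, as holds if the ratio is control over tickled, the group's medians become -0.15 against no stimulus and -0.16 against light touch. Then 0 members are above 1 against no stimulus and 1 against light touch, and 0 are 25% or more above 1 on either array. Only the members and the family genes past 1.5-fold on either array were recomputed gene by gene. Those that were, before the turn, 25% or more above 1 or at 0.8 or less reverse. Against no stimulus they reverse to log2 values of -0.40 for Fgf2, 1.15 for Ngfr, -0.62 for Artn and -0.64 for Insr. Against light touch they reverse to -0.36 for Ntrk3, -0.40 for Igf2, 0.38 for Ngfr, 0.64 for Shc3, -0.61 for Sdc3 and -0.82 for Insr. No replicate array or dye swap was available, so no array could be left out.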

Other observations

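A list of other growth factor genes and their receptor genes had medians close to 1. It held the epidermal, vascular, platelet-derived, ciliary and transforming growth factor families and some further factors, such as Manf, Ptn and Mdk. Of 38 measured genes, 27 had a ratio above 1 against no stimulus, where 51.8% of all genes did, with a median log2 ratio of 0.07. Against light touch 13 of 36 were above 1, with a median of -0.03. The list spanned 0.84 for Manf, a factor released under stress of the endoplasmic reticulum, to 1.26 for placental growth factor (Pgf) against no stimulus. Against light touch it spanned 0.76 for Gdf10 to 1.30 for Pgf. The vascular factor gene Vegfa was at 1.10 and 1.09, and the ciliary neurotrophic factor gene Cntf at 1.20 and 1.04.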
